A study of Homo sapiens with 30 samples.

Results

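The comparison described here was made in NGP cells, an established human neuroblastoma line, between cells transfected with the antisense oligonucleotide (ASO) ASO10 and cells transfected with a negative control ASO, called NCA. It takes 6 of the 30 libraries of the series, 3 of each group, chosen by the names of the columns in the NGP table. The target of ASO10 is NESPR, a long non-coding RNA that the title of the series links to adrenergic neuroblastoma, to stress and to cell death. Every library of both groups came from cells given 100 nM of an ASO with lipofectamine 2000, so there were no untransfected cells among them, and the time from transfection to harvest is not given in the sources used here. NGP cells given ASO2, another ASO against NESPR (3 libraries), and the same ASO10 and NCA groups in SK-N-BE(2)c, a further neuroblastoma line (3 libraries each), are used only to show where ASO10 in NGP differed. The labels do not say whether replicates were separate cultures, so p-values measure the spread between these libraries. The column of NCA replicate 1 is spelled differently from those of replicates 2 and 3, and whether this marks another control oligonucleotide is not settled by the labels. The level of NESPR itself was not analysed here.

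Neuroblastoma arises from cells of the sympathetic lineage, and its adrenergic state is held by a small set of transcription factors and is marked by enzymes of catecholamine synthesis. Cells under stress reduce general translation and use the transcription factor ATF4 to raise genes of amino acid supply, while DNA damage and related signals act through p53, which raises cell cycle inhibitors and pro-apoptotic genes and is itself degraded with the help of MDM2. An ASO pairs with its target RNA and commonly has it cut by RNase H, and can also act on RNAs that it pairs with in part.

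Recovered reads ran from 12126517 to 12954564 in the ASO10 libraries and from 11995118 to 13774906 in the NCA libraries. Genes with at least 1 read numbered 23722 to 23934 with ASO10 and 21615 to 22030 with NCA, so the groups did not overlap in this count. Mitochondrial genes took 4.25% to 4.45% of the values with ASO10 and 4.48% to 4.72% with NCA. All 11 markers of adrenergic neuroblastoma cells were present, with a summed level of 87945 to 90675 with ASO10 and 90917 to 93471 with NCA, while CLDN5 (endothelium), KRT5 (epithelium), CDH19 (Schwann cells), PTPRC and CD3E (leukocytes) were at 0 in all 6 libraries.

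Of 57905 genes in the table, 14603 had a mean normalized count of at least 10 over the 6 libraries and were tested with limma on log2(value + 1). CASC2 lay just inside this limit at a mean of 10.02, and ASB16 just outside at 9.995. Calls were made at 0.05 on Benjamini-Hochberg adjusted p-values. With ASO10, 3955 genes (27.1% of those tested) were called higher and 3992 (27.3%) lower, and together they were 54.4% of all genes tested. Changes of at least 1 on the log2 scale were fewer, with 1160 genes higher (7.94%) and 622 lower (4.26%). The values of the groups did not overlap in 8642 genes (59.2%). These totals include genes with an NCA mean under 10, which could pass the limit only if they were higher with ASO10. Such genes were 526 of the 3955, 517 of the 1160 and 555 of the 8642, so the totals do not show a balance of directions.

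The counts are given apart by the level of the gene in the controls. Among the 9967 genes with an NCA mean of at least 100, called well expressed here, 2584 were called higher (25.9%) and 3312 lower (33.2%), and changes of at least 1 were mostly decreases, 365 genes (3.66%) against 154 increases (1.55%). Among the 3975 genes with an NCA mean from 10 to 100, 489 were higher by at least 1 and 257 lower. The 661 genes with an NCA mean under 10, called near 0 here, could enter the test only through the ASO10 libraries and therefore had to be higher in them, so their number is a description and no support for a direction. The same limit touches the lower end of the class from 10 to 100. Genes were also placed by libraries of neither group, an alternative added after the data were seen: of 9738 genes with an ASO2 mean of at least 100, 184 were higher with ASO10 by at least 1 and 306 lower, and of 9678 genes with an SK-N-BE(2)c NCA mean of at least 100, 165 were higher and 351 lower.

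**Figure D1:**
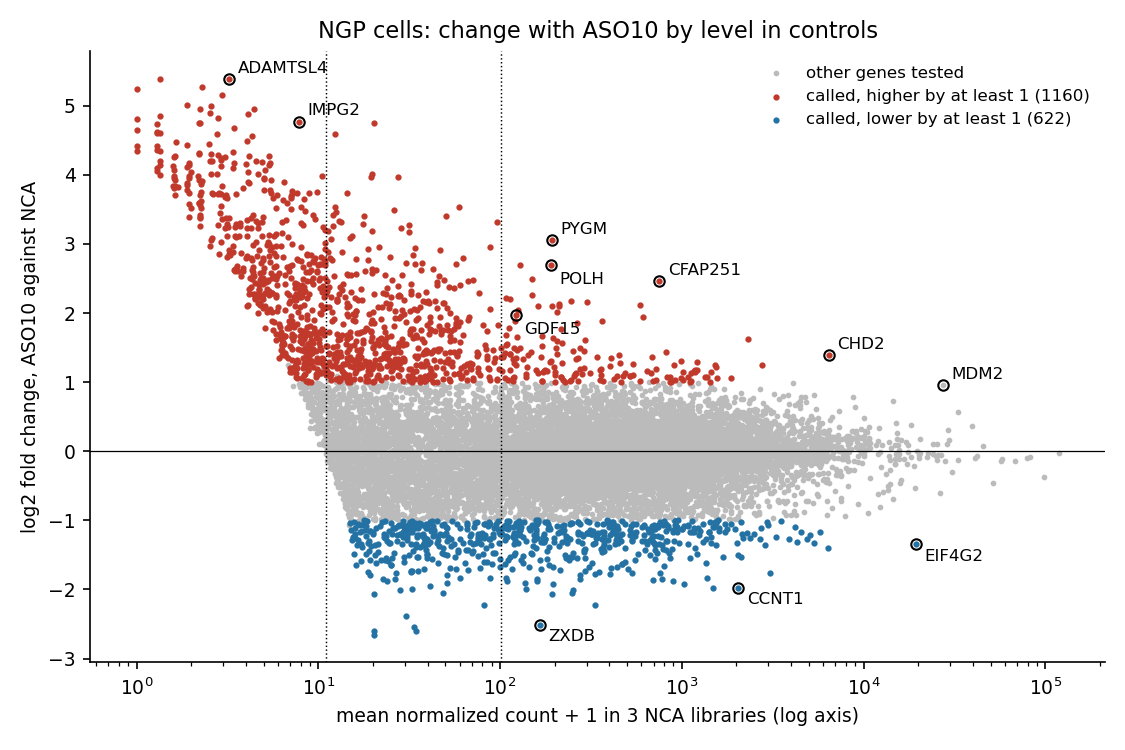
Each point is 1 of the 14603 genes tested, placed by its mean normalized count + 1 in the 3 NCA libraries (horizontal, log axis) and its log2 fold change with ASO10 (vertical). Red points are the 1160 genes called higher by at least 1, blue points the 622 called lower by at least 1, and dotted lines mark means of 10 and 100. Red points crowd the left and blue points outnumber red ones to the right of 100. The sloping lower left edge is the limit of a mean of 10 over the 6 libraries.

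Among well expressed genes the strongest increase was in PYGM, which encodes the glycogen phosphorylase of muscle. Its normalized counts were 1578, 1657 and 1408 with ASO10 and 223, 227 and 125 with NCA (log2 fold change 3.05, SE 0.15, adjusted p = 2.4e-14). FERMT3, an adaptor of integrins known from blood cells, read 865, 864 and 762 against 128, 152 and 106 (log2 fold change 2.70, SE 0.13, adjusted p = 1.7e-14). In both genes the lowest ASO10 library lay several times above the highest NCA library.

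POLH, the DNA polymerase that copies past ultraviolet damage and a target of p53, read 1165, 1268 and 1195 with ASO10 and 183, 151 and 235 with NCA (log2 fold change 2.69, SE 0.11, adjusted p = 3.9e-16). PHLDA1, a protein with a pleckstrin homology-like domain, read 789, 669 and 705 against 158, 144 and 148 (log2 fold change 2.26, SE 0.09, adjusted p = 5e-16). CFAP251, a component of cilia and flagella, was the most abundant of the 12 genes with the largest increases. Its counts were 4160.4, 4197 and 4108 with ASO10 and 742, 789.5 and 724 with NCA (log2 fold change 2.47, SE 0.06, adjusted p = 8.2e-20), with an NCA replicate spread far smaller than the difference. MYH3, a myosin heavy chain of embryonic muscle, read 824, 849 and 857 against 148, 154 and 145 (log2 fold change 2.49, SE 0.11, adjusted p = 2.7e-15).

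The other 6 of these 12 genes were HSD11B1L, KCNJ14 (a potassium channel), AOC2 (an amine oxidase), B3GNT4 (a glycosyltransferase), IQCN and ECM1 (a protein of the extracellular matrix). Their log2 fold changes ran from 2.10 in ECM1 to 2.22 in HSD11B1L. All 12 were taken among called genes whose ASO10 and NCA values did not overlap, so that separation was a condition of their choice. Reads of AOC2 may be shared with its paralog AOC3, which makes its level uncertain.

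The largest decrease among well expressed genes was in ZXDB, a zinc finger protein, with 32.6, 27.6 and 24.7 with ASO10 and 170.3, 166 and 159 with NCA (log2 fold change -2.51, SE 0.15, adjusted p = 7.7e-13). Its reads may be shared with the near-identical ZXDA. CXXC4, an inhibitor of Wnt signalling, read 76.4, 61.8 and 73.0 against 341, 309 and 347 (log2 fold change -2.23, SE 0.11, adjusted p = 8e-15). FBXL4, a mitochondrial F-box protein, fell to a mean of 45.0 from 191 (log2 fold change -2.06), and the zinc finger gene ZNF800 to 59.2 from 247 (-2.05 on the same scale).

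CCNT1 encodes cyclin T1, the regulatory subunit of P-TEFb, the kinase that releases paused RNA polymerase II. It read 529, 509.7 and 524 with ASO10 and 2055, 1969.9 and 2126 with NCA (log2 fold change -1.97, SE 0.06, adjusted p = 1.3e-17). PNMA1, a neuronal protein known as a paraneoplastic antigen, read 386, 369 and 376 against 1499, 1545 and 1410.1 (log2 fold change -1.97, SE 0.06, adjusted p = 1.4e-17). Within each group the 3 libraries of these genes lay close together, and the highest ASO10 value was under the lowest NCA value by more than 1000 normalized counts. USP13, a deubiquitinase, fell from a mean of 1029.99 to 272. ABHD6, a lipase of endocannabinoids, fell from 251 to 61.8. TMCC2, CD59 (an inhibitor of complement), PTP4A3 (a phosphatase) and HECA made up the rest of the 12 largest decreases, with log2 fold changes from -1.99 in TMCC2 to -1.88 in HECA.

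**Figure D2:**
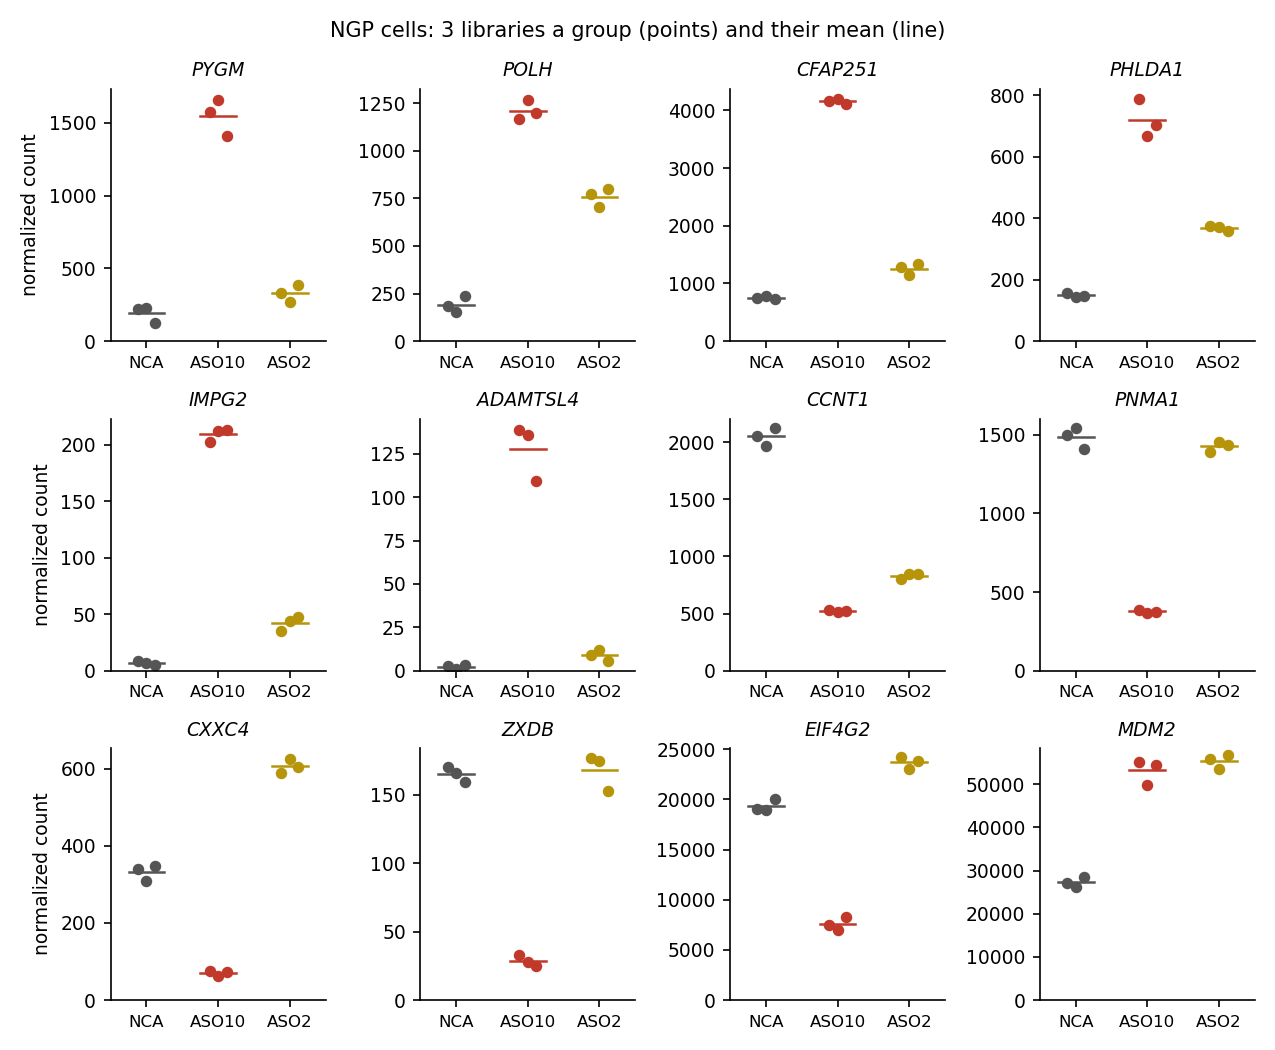
Normalized counts of 12 genes in NGP, 1 panel a gene, with 3 libraries a group as points and the mean as a line. The axes start at 0 and differ between panels. PYGM to ADAMTSL4 were higher with ASO10 than with NCA in every library and CCNT1 to EIF4G2 lower, while the ASO2 libraries stood near NCA in PNMA1 and ZXDB, above NCA in CXXC4 and EIF4G2, and level with ASO10 in MDM2. For most of these genes the rules of choice required or favoured the separation of ASO10 from NCA.

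Of 1270 genes with NCA means of at least 2000, 3 were higher by at least 1 and 28 lower. In this class the 4 in each direction that gained or lost most normalized counts were taken among those that changed by 0.5 or more in size on the log2 scale. MDM2, the ubiquitin ligase of p53, read 55146, 49881 and 54501 with ASO10 and 27189.8, 26306 and 28486 with NCA (log2 fold change 0.96, SE 0.04, adjusted p = 5.1e-15), the largest gain of this kind. RSRC2, CHD2 (a chromatin remodeller) and ZCCHC8 (a subunit of the nuclear exosome targeting complex) followed. CHD2 read 17451, 16894 and 16289 against 6498, 6928 and 5897 (log2 fold change 1.39, SE 0.06, adjusted p = 3.9e-16). EIF4G2, a factor of cap-independent translation, lost most, with 7521, 7019.97 and 8292 with ASO10 and 19002, 18998 and 20035 with NCA (log2 fold change -1.35, SE 0.05, adjusted p = 2.2e-16). The imprinted long non-coding RNA H19 fell from a mean of 26235 to 17246 and the splicing regulator HNRNPA2B1 from 19144 to 13233, a log2 fold change of -0.53.

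Because the comparisons of ASO10 and ASO2 with NCA share the 3 NCA libraries, the levels with ASO2 are set beside those above, and the tested difference is that of ASO10 against ASO2 (8585 of 14603 genes called, 58.8%). PYGM had a mean of 328 with ASO2, and ASO10 exceeded ASO2 by 2.25 on the log2 scale (adjusted p = 3.8e-12). EIF4G2 read 24268, 23026 and 23836 with ASO2, all above the NCA libraries, and ASO10 lay -1.64 from ASO2 (adjusted p = 1.9e-18). CXXC4 read 589, 625 and 604 with ASO2, also above NCA, with a difference of -3.09 between the ASOs (adjusted p = 9.7e-18). PNMA1 and ZXDB had ASO2 means of 1426 and 168, near their NCA means of 1484 and 165. CCNT1 was intermediate, at 831 with ASO2, and POLH at 758. MDM2 at 55419 with ASO2 differed from ASO10 by -0.06, which missed the threshold (adjusted p = 0.24).

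Genes near 0 in the controls are described apart from these. Of the 661, 378 were annotated as protein coding, 140 as lncRNA and 105 as pseudogenes, so 57.2% were protein coding, beside 57.7% of genes with an NCA mean from 10 to 100 and 95.0% of well expressed genes. Their median level with ASO10 was 23.4 against 6.17 with NCA, and 91 genes reached an ASO10 mean of at least 50, 8 of at least 100 and 1 of at least 200. In 93 genes every NCA library held at most 3 reads, and in 5 no NCA library held a read. The limit on the mean lets a gene in from the other side too: 219 tested genes had an ASO10 mean under 10, of which 91 were called lower, and none of them had an NCA mean of 50 or more.

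IMPG2, a proteoglycan of the matrix around photoreceptors, had the highest ASO10 level among genes near 0. It read 203, 212 and 213 with ASO10 and 8.19, 7.09 and 5.13 with NCA, a ratio of means of 30.8. ATP8B3, a phospholipid flippase, read 129, 192 and 151 against 12.7, 10.6 and 5.13. ADAMTSL4, a protein of the extracellular matrix, read 139, 136 and 109 against 2.73, 0.886 and 3.08. In these 3 genes every ASO10 value was above every NCA value. CETP, the plasma protein that moves cholesteryl esters between lipoproteins, read 92.7, 154 and 107 against 4.55, 2.66 and 2.05. The same held for CETP. These genes were chosen for NCA means under 10 and for the highest ASO10 means. Their choice thus all but fixed this separation, which is a description only. MAP7D2 (a microtubule-binding protein), GP5 (a platelet glycoprotein), AIFM3, CYP2D6 (a drug-metabolising enzyme of liver), PLEKHA7 (an adherens junction protein) and RASGRP2 (a Ras-family exchange factor of platelets) had ASO10 means from 95.5 in RASGRP2 to 129 in MAP7D2. Reads of CYP2D6 may be shared with its close copies. Some of these 10 genes are known from retina, liver, plasma or platelets, and for the others no tissue is given here.

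Markers of other cell types were summed in each library. The summed level of 7 leukocyte markers was 186 to 228 with ASO10 and 31.8 to 46.1 with NCA, mostly from ITGAM (76.4, 70.4 and 72.0 against 4.55, 0.886 and 5.13), LYZ (111, 93.2 and 80.9 against 20.9, 23.0 and 20.5) and CD14 (23.4, 20.9 and 19.7 against 9.11, 20.4 and 6.15), while PTPRC and CD3E, which define leukocytes and T cells, were at 0 in all 6 libraries. Of these 3, ITGAM was near 0 in the controls, and the groups overlapped in CD14. The sums for fibroblast markers were 1324 to 1491 with ASO10 and 1430 to 1502 with NCA, and those for endothelial markers 23.4 to 33.3 and 23.0 to 32.8. Schwann cell markers summed to 2302 to 2353 with ASO10 and 2561 to 2690 with NCA, and epithelial markers to 26.6 to 41.8 and 24.8 to 29.1. The part of these markers in the results was not tested.

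Genes with large increases often lay downstream of an expressed gene on the same strand, a feature that their choice had not used. For each gene the nearest gene on its 5′ side with an NCA mean of at least 100 was found in the GENCODE release 29 annotation. It could lie at any distance or overlap the gene, and the distance was not measured. That neighbour was on the same strand for 49.6% of all genes tested, 46.9% of well expressed genes and 52.0% of genes at NCA means of 10 to 100. It was on the same strand for 104 of 149 well expressed genes higher by at least 1 (69.8%) and for 365 of 458 genes higher by at least 1 at NCA means of 10 to 100 (79.7%). For well expressed genes lower by at least 1 it was 168 of 361 (46.5%), close to the share of all. Of the 12 largest increases, 10 had such a neighbour on the same strand (not POLH and HSD11B1L). For example, this neighbour was SF1 for PYGM and TARS2 for ECM1. For 2 of the genes near 0 it was in turn 1 of these genes, PYGM for RASGRP2 and ECM1 for ADAMTSL4. The neighbours themselves changed little in some cases (SF1, log2 fold change 0.13) and more in others (TARS2, 0.72). Whether the deposited counting used strand is not given in the sources used here, and overlapping genes are uncertain for that reason.

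Gene length divided the well expressed genes in the other direction. The median annotated span was 34.1 kb for all well expressed genes, 18.7 kb for those higher by at least 1 and 121 kb for those lower by at least 1. Among 1794 genes shorter than 10 kb, 1.06% were lower by at least 1 and 2.68% higher. Among 1613 genes of 100 to 300 kb the shares were 7.75% and 0.620%, and among 377 genes of 300 kb or more they were 20.95% and 0%, with 71.1% of these called lower at all. The median log2 fold change was -0.03 in the shortest class, -0.20 from 100 to 300 kb and -0.54 from 300 kb upward. In SK-N-BE(2)c the medians of the same classes were 0.06, -0.27 and -0.61. The GC content of transcripts moved with length, with a median of 52.5% in genes higher by at least 1, 47.5% in well expressed genes and 44.5% in genes lower by at least 1, and its part was not tested apart from length.

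**Figure D3:**
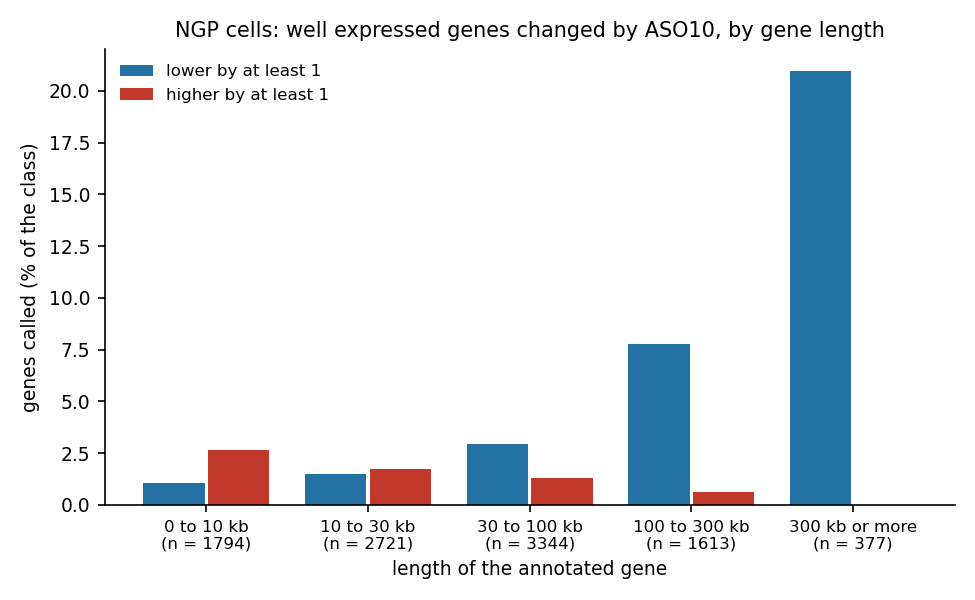
Share of well expressed genes called lower (blue) or higher (red) by at least 1 on the log2 scale with ASO10 in NGP, in percent of the genes of each class of annotated gene length. Bars start at 0. The blue bars grow from 1.06% below 10 kb to 20.95% at 300 kb or more, and no gene of the longest class was higher by at least 1.

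The genes of the integrated stress response, the programme of ATF4, rose together. Of 28 members tested, 26 were called higher and none lower, with a median log2 fold change of 0.68, beside 27.1% called higher and a median of -0.02 over all genes tested. ATF4 itself read 6773, 6832 and 6414 with ASO10 and 3856, 4191 and 3419 with NCA (log2 fold change 0.81, SE 0.06, adjusted p = 2.2e-11). Its partners and followers among transcription factors rose as well, by 1.49 in ATF3, 1.07 in ATF5, 0.56 in DDIT3 (CHOP) and 0.47 in CEBPB. ATF3 read 552, 559 and 586 against 180.3, 237 and 189.7.

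GDF15, a secreted stress cytokine, had the largest increase of the list, with 531, 474 and 393 with ASO10 and 134, 152 and 79.0 with NCA (log2 fold change 1.97, SE 0.16, adjusted p = 1.3e-10). DDIT4, an inhibitor of mTORC1, read 2315, 2123 and 2133 against 917, 888 and 645 (log2 fold change 1.44, SE 0.09, adjusted p = 1.3e-12), and SESN2, another inhibitor of that kinase, rose by 1.02. Of the enzymes and carriers of amino acid supply, asparagine synthetase (ASNS) rose by 0.53, PHGDH and PSAT1 of serine synthesis by 0.57 and 0.65, and the transporter subunits SLC7A5 and SLC3A2 by 0.90 and 0.85. CHAC1, which breaks down glutathione, rose by 0.68. MTHFD2 (-0.09, adjusted p = 0.13) and PYCR1 (0.04, adjusted p = 0.68) missed the threshold.

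ATF4 pairs with C/EBP proteins on composite elements, here searched as TGATGNAA on both strands, the 1 motif searched for this list. Of 25 list members with an entry in the RefSeq promoter table (GRCh38.p14, 250 bases before to 50 after the start), 6 held these letters (24%), against 3.67% of all 27305 promoters of that length. A match is a description of the letters and not evidence of binding. The list was made of genes known for the programme of ATF4, so its higher share may come from that choice. It says nothing about the change with ASO10. The windows of 3 members that rose are shown since they carry the match upstream of the start, in capitals, from chr1:212565190-212565249 (+ strand) for ATF3, chr15:40953236-40953295 (+ strand) for CHAC1 and chr7:97872443-97872502 (- strand) for ASNS:
ATF3: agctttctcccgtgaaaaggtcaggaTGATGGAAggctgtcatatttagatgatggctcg
CHAC1: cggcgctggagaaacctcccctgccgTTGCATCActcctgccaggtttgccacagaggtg
ASNS: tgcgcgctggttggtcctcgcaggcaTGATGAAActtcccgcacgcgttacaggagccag
The match starts 191 bases before the start of ATF3, 209 before that of CHAC1 and 68 before that of ASNS, and in CHAC1 it is on the opposite strand.

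The lists that follow are read against the same shares of all genes tested, 27.1% higher and 27.3% lower. Of 25 genes of the unfolded protein response of the endoplasmic reticulum, 8 were called higher and 4 lower (median 0.03), shares close to and below these. HERPUD1, of the degradation machinery, rose by 0.82, the sensor ERN1 (IRE1) by 0.71 and the transcription factor XBP1 by 0.57, while SDF2L1, a partner of the chaperone BiP, fell by 0.70. Heat shock proteins gave 3 higher and 4 lower of 23, and antioxidant genes of NRF2 4 higher and 1 lower of 17.

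Targets of p53 rose in NGP. Of 26 tested, 22 were called higher and 2 lower, with a median log2 fold change of 0.78, beside 27.1% higher, 27.3% lower and a median of -0.02 over all genes tested. POLH, described above, is on the list and had its largest increase. CDKN1A, the p21 inhibitor of cyclin-dependent kinases, read 7518, 7105 and 6631 with ASO10 and 2441, 2514 and 1978 with NCA (log2 fold change 1.62, SE 0.07, adjusted p = 1.2e-15). The death receptor gene FAS read 171, 142 and 173 against 39.2, 47.9 and 49.2 (log2 fold change 1.81, SE 0.14, adjusted p = 6.8e-11). PPM1D, a phosphatase that acts on p53, rose by 1.15, the DNA damage sensor DDB2 by 1.09, GADD45A by 1.00, the ribonucleotide reductase subunit RRM2B by 0.90 and the antiproliferative BTG2 by 0.76. TP53I3 and FBXO22 were called lower, by 0.19 and 0.18, and BAX (0.15, adjusted p = 0.051) and SPATA18 (0.24, adjusted p = 0.4) missed the threshold.

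Genes of the BCL2 family were called higher in 7 of 14 and lower in 4, beside 27.1% and 27.3% of all genes tested, so the lower members were near the share of all genes. BBC3 (PUMA), a BH3-only activator of apoptosis that is also on the p53 list, read 1395, 1278 and 1173 with ASO10 and 603, 585 and 428 with NCA (log2 fold change 1.26, SE 0.10, adjusted p = 1.1e-10). PMAIP1 (NOXA) read 721, 675 and 706 against 449, 331 and 403 (log2 fold change 0.84, SE 0.09, adjusted p = 4.2e-08). HRK was low, at 24.5, 26.6 and 36.5 against 18.2, 6.20 and 9.23, and rose by 1.41. BMF fell (-0.85), as did the protective BCL2 (-0.26), while MCL1, also protective, rose by 0.21. Of 14 caspases and their inhibitors, 3 were called higher and 4 lower. The large inhibitor BIRC6 read 2001, 1941 and 2057 against 4319, 4515 and 4713 (log2 fold change -1.17, SE 0.05, adjusted p = 2.4e-15), and XIAP rose by 0.87.

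Immediate early genes and AP-1 subunits gave 15 higher and 1 lower of 24, with a median of 0.56, beside 27.1% higher and 27.3% lower over all genes tested. FOS read 662, 707 and 668 with ASO10 and 288, 276 and 192 with NCA (log2 fold change 1.45, SE 0.11, adjusted p = 4e-11), JUN rose by 0.62, JUNB by 0.86, EGR1 by 0.93 and ARC by 1.16. FOSL2 was the 1 member called lower (-0.23), and DUSP1 (0.08), NR4A1 (0.16) and NR4A2 (-0.09) missed the threshold. ATF3 is on this list as well.

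Enzymes of cholesterol and fatty acid synthesis were called higher in 21 of 29 and lower in 1, with a median of 0.28, beside 27.1% higher over all genes tested. HMGCS1, which makes a precursor of mevalonate, read 5863, 5581 and 5559 with ASO10 and 3194, 2968 and 3475 with NCA (log2 fold change 0.82, SE 0.06, adjusted p = 5.4e-12). Along the same pathway MVK rose by 0.87, MVD by 0.92, SQLE by 0.57 and MSMO1 by 0.70, and the feedback regulator INSIG1 by 0.76. FADS2, a fatty acid desaturase, fell by 0.31. LSS, PMVK and NSDHL had values within 0.06 of 0.

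Transcription factors of the adrenergic state were lower. Of 20 tested, 14 were called lower and 2 higher, with a median of -0.40, beside 27.3% called lower over all genes tested. HAND2 read 8422, 8459.7 and 8459.6 with ASO10 and 12589.7, 13151 and 12552 with NCA (log2 fold change -0.60, SE 0.04, adjusted p = 1.8e-11). PHOX2A read 2224, 2449.7 and 2061 against 3171, 3462 and 2842 (log2 fold change -0.49, SE 0.07, adjusted p = 8e-07). SIX3 fell by 1.08, KLF7 by 0.73, ISL1 by 0.52 and HAND1 by 0.52, and GATA3 by only 0.12 (adjusted p = 0.04). MYCN, at 47338, 46430.5 and 50133 against 46057, 43295 and 47028, missed the threshold (0.08, adjusted p = 0.15), and SOX11 rose by 0.28. In bulk RNA, fewer cells of a type and less RNA per cell cannot be told apart.

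Of 14 genes of catecholamine synthesis and secretory granules, 6 were called lower and 2 higher, beside 27.3% and 27.1% of all genes tested. The enzymes TH, DDC and DBH, which lead in this order from tyrosine to noradrenaline, fell by 0.39, 0.65 and 0.40, and the noradrenaline transporter SLC6A2 by 0.47. SCG5, a chaperone of prohormone convertase, went the other way, with 201, 178 and 188 with ASO10 and 47.3, 30.1 and 36.9 with NCA (log2 fold change 2.30, SE 0.27, adjusted p = 7.5e-08). It read 4.64, 12.8 and 10.0 with ASO2, under the NCA libraries. Granins CHGA (-0.07) and CHGB (-0.07) missed the threshold. Mesenchymal and YAP target genes showed no common direction, with 7 called higher and 6 lower of 14. FN1 fell by 0.74 and NOTCH3 rose by 1.65.

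Of 34 genes of DNA replication, 15 were called lower and 3 higher (median -0.10), and of 32 mitotic genes 17 lower and 4 higher (median -0.14), beside 27.3% lower over all genes tested and 33.2% of well expressed genes. The 15 replication genes became 10 with DESeq2, with no mean-variance trend and without ASO10 replicate 1, which is near those shares, and the 17 mitotic genes became 14 with no trend. RRM2, a subunit of ribonucleotide reductase, read 2102, 2082 and 2368 with ASO10 and 3454, 3491 and 3824 with NCA (log2 fold change -0.72, SE 0.06, adjusted p = 9e-11). CCND1 (cyclin D1) fell by 0.61, POLA1 by 0.78, the cytokinesis factor ECT2 by 1.11 and the checkpoint kinase BUB1 by 0.88. MKI67 (0.06), PCNA (0.00), CCNB1 (-0.04) and CDK1 (-0.03) missed the threshold.

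Cytosolic ribosomal protein genes were called higher in 52 of 72 and lower in 1, with a median of only 0.18, beside 27.1% higher over all genes tested. The share of all values they took was 3.79% to 3.85% with ASO10 and 3.22% to 3.56% with NCA, groups that did not overlap. RPS19 read 20148, 20208 and 19678 with ASO10 and 15623, 15316 and 14237 with NCA (log2 fold change 0.41, SE 0.05, adjusted p = 3.5e-08). RPS28 had the largest increase of the list (0.74). Processed pseudogenes of these genes are many, so reads of single members are uncertain. The count of 52 was 31 in a fit with no mean-variance trend.

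In several complexes 1 or a few subunits stood apart while the list as a whole had a median near 0. Of 34 genes of P-TEFb, its 7SK regulators and elongation factors, 8 were called higher and 7 lower (median 0.06), and CCNT1 at -1.97 was followed at a distance by MLLT3 at -0.82. CDK9, the kinase that cyclin T1 activates, missed the threshold (0.11, adjusted p = 0.31), as did CCNT2 (0.13), while HEXIM1, which holds P-TEFb inactive, rose by 0.66. Of 30 genes of cleavage and polyadenylation, 9 were called higher and 8 lower. NUDT21, which helps to choose polyadenylation sites, read 2113, 1936 and 2274 with ASO10 and 5265, 4927 and 5734 with NCA (log2 fold change -1.33, SE 0.06, adjusted p = 2.7e-15). CSTF3, of the cleavage stimulation factor, fell by 0.89. Of 14 Integrator subunits, 4 were called higher and 2 lower.

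TRRAP, the large scaffold of histone acetyltransferase complexes, read 752, 701 and 710.1 with ASO10 and 1984, 2055 and 2094 with NCA (log2 fold change -1.50, SE 0.06, adjusted p = 2.2e-16), among 31 genes of which 9 were called higher and 8 lower, including SUPT3H at -1.20. SEC61A1, the channel of protein entry into the endoplasmic reticulum, read 1599.8, 1587 and 1661 against 3861, 4049 and 3781 (log2 fold change -1.27, SE 0.05, adjusted p = 3.8e-16). In its list of 31 genes 7 were called higher and 11 lower, and its paralog SEC61A2 rose by 0.66. Of 36 translation initiation factors, 14 were called higher and 10 lower. EIF4G2 fell most (-1.35), and EIF4G1, the scaffold of cap-dependent initiation, rose by 0.72.

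Among 35 core genes of autophagy, 13 were called lower and 4 higher, beside 27.3% lower over all genes tested and 33.2% of well expressed genes, so the lower members were near the share of well expressed genes. MAP1LC3B, whose lipidated protein marks autophagosomes, read 189, 172 and 212 with ASO10 and 726, 678 and 679.9 with NCA (log2 fold change -1.86, SE 0.08, adjusted p = 2.9e-15). It read 1245, 1128 and 1190.3 with ASO2, above every NCA library. ATG10 was low and read 9.17, 19.0 and 13.8 against 38.2, 62.9 and 48.2 (-1.79). SQSTM1, the cargo receptor p62, rose by 0.20. The median of this list was -0.01 and that of the acetyltransferase list 0.00, and both turn sign with other scalings of the libraries. Of 15 genes of shelterin and telomerase, 3 were called higher and 3 lower, and of 10 tested genes of interferon and nucleic acid sensing 1 higher and 5 lower, with MAVS at -0.86.

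The change with ASO10 was compared with that in SK-N-BE(2)c, which has its own controls and whose p53 gene is known to be mutated. There, 28% of 13684 genes tested were called higher and 30.8% lower. Of the genes called higher in NGP and tested in both, 2468 of 3516 (70.2%) were called higher in SK-N-BE(2)c and 143 lower, and these 2468 were 67.0% of the 3681 genes called higher there. Of genes called lower in NGP, 2587 of 3616 (71.5%) were called lower in SK-N-BE(2)c and 72 higher, and they were 64.8% of the 3991 called lower there. Of the large changes of well expressed genes, 137 of 150 increases of at least 1 (91.3%) and 327 of 331 decreases (98.8%) were called in the same direction in SK-N-BE(2)c. The 150 and 331 are those of the 154 and 365 that were tested in both lines. The size of the change differed between the lines, by the test given below, in 71 of the 150 increases and 30 of the 331 decreases. Over all genes tested in both lines 17.4% differed. CCNT1, for example, read 451, 299.7 and 421 with ASO10 and 1733, 1851 and 1839.8 with NCA in that line, and the difference between the lines missed the threshold (0.25, SE 0.14, adjusted p = 0.21). Of the 661 genes near 0 in NGP controls, 543 were also under 10 in the SK-N-BE(2)c controls, and the mean was higher with ASO10 there in 574, lower in 73 and equal in 14. Their median level in SK-N-BE(2)c was 14.7 with ASO10 and 2.74 with NCA, so many of these differences rest on few reads. The same count was not made over all genes. Of the 114 with an SK-N-BE(2)c NCA mean of at least 10 that were tested, 54 were called higher and 4 lower.

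The difference between the lines was tested with limma over the 12 libraries, as NGP minus SK-N-BE(2)c. It was called for 2215 of 12754 genes (17.4%), of which 1138 (8.92%) changed more toward higher levels in NGP. Of 23 targets of p53 tested in both lines, 16 had a greater log2 fold change in NGP and none a lesser one, and in SK-N-BE(2)c 7 were called higher and 11 lower, with a median of -0.20. MDM2 read 820.2, 799 and 816 with ASO10 and 986, 1057 and 1071 with NCA in SK-N-BE(2)c (-0.35), and its change differed by 1.31 (SE 0.07, adjusted p = 7.6e-11). CDKN1A read 64.2, 73.6 and 55.1 against 47.1, 53.4 and 46.3 there, a difference between lines of 1.24 (SE 0.15, adjusted p = 6.2e-06). RRM2B (-0.62), SESN1 (-0.50), CCNG1 (-0.51) and FDXR (-0.37) were called lower in SK-N-BE(2)c and higher in NGP. BBC3 (1.50) and FAS (1.75) rose in SK-N-BE(2)c too, and for them no difference between lines was called (differences -0.24, SE 0.18, and 0.07, SE 0.35).

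Of 29 genes of cholesterol and fatty acid synthesis, 20 had a greater log2 fold change in NGP and 1 a lesser one, and in SK-N-BE(2)c 5 were called higher and 14 lower, with a median of -0.14. HMGCS1 read 1760.4, 1323 and 1537 with ASO10 and 2067, 2056 and 2251 with NCA there (-0.47), a difference of 1.29 (SE 0.11, adjusted p = 5.7e-08). MSMO1 (-0.85) and INSIG1 (-0.41) also fell in SK-N-BE(2)c. On the ATF4 list 26 of 28 genes were called higher in SK-N-BE(2)c, as in NGP, and 1 lower, with a median of 0.73, and the log2 fold change was greater in NGP for 6 genes and lesser for 5. Adrenergic transcription factors were called lower in 13 of 19 in SK-N-BE(2)c, and 2 differed in each direction. DNA replication genes gave 13 higher and 9 lower of 34 there, and 12 had a lower log2 fold change in NGP against 1 higher. With each of the 12 libraries left out in turn, the number of differences ran from 1469 to 3130, and 1469 was reached without ASO10 replicate 2 of SK-N-BE(2)c, while the number of p53 targets with a greater change in NGP was 15 or 16 in each of these fits.

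**Figure D4:**
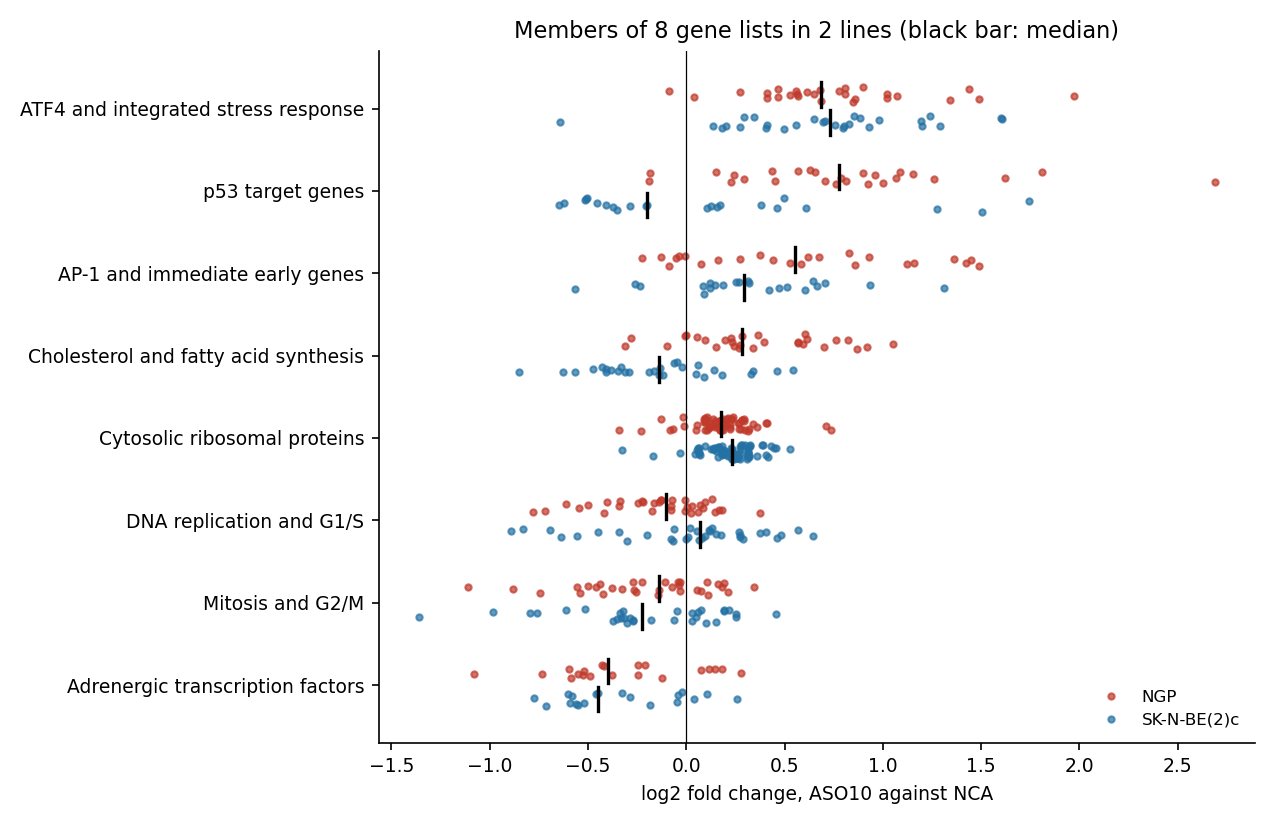
Log2 fold change with ASO10 against NCA (horizontal) of the members of 8 gene lists (rows), in NGP (red) and SK-N-BE(2)c (blue). Each point is a gene and the black bar is the median. The medians of the p53 list stand at 0.78 and -0.20 and those of the cholesterol list at 0.28 and -0.14, while those of the ATF4 list lie at 0.68 and 0.73.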

How the data were processed

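RNA sequencing of 3 ASO10 and 3 NCA libraries of NGP is described; 3 ASO2 libraries of NGP share the variance estimate, and 6 SK-N-BE(2)c libraries serve the comparison between lines. Per the submitters' processing notes, reads passed cutadapt 1.18, STAR 2.6.0, HTSeq 0.6.1 and DESeq2 1.42.0, with builds hg19 and GRCh37 named. Per the labels, libraries came from a stranded total RNA or a stranded mRNA kit, and which library had which kit is not given. The deposited values are a normalized signal, gene counts divided by a size factor per library, and for NGP 100% of values came back as whole reads within 0.01 (11995118 to 13774906 reads in the 6 libraries). Of 57905 gene IDs, 68.3% had a symbol and 90.4% an entry in GENCODE release 29, which gave type, order, strand and span only. Columns of per-sample values without a sample numbered 0.

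The test was limma 3.58.1 (R 4.3.3) on log2(value + 1) (9 NGP libraries, mean of at least 10 in the 6 compared, mean-variance trend, Benjamini-Hochberg). Fold changes on this scale understate low genes. The members and gene lists were chosen with earlier results of these data known, so list counts are descriptions. Named genes were taken by rule among symbols of protein-coding or lncRNA type. The 12 largest changes each way at an NCA mean of at least 100 were taken among called genes with no overlap of the groups. Further rules took the 4 largest gains and losses at 2000 or more, the 10 highest ASO10 means near 0 and the largest called list members. The other list members are named to account for the counts and were chosen with their values known. Of 721 list entries, 716 were found. The values of some members are not reported here, though list counts include them. No pair of replicates looked like a copy (chi-square per degree of freedom 2.38 to 7.41, with NCA replicate 3 in the 2 largest, 4.97 and 7.41). On simulated data with known changes the fit recovered 81.8%, 94.0% and 100% of log2 changes of 0.5, 1 and 2, with 3 false calls among 14603 genes, and the test between lines 54.5%, 88.1% and 98.5%, with 6 among 12754. Only 66, 67 and 67 genes were changed at these sizes, far fewer than were called in the data. The scaling of the libraries was taken as known, and the spread of NGP was used for both lines. The simulation therefore gives no rate of false calls for the data. Alternatives included edgeR 4.0.16 and DESeq2 on the recovered reads. Promoter sequences come from RefSeq (GRCh38.p14). With 3 libraries a group an exact permutation test cannot go below 0.1, so none is given. Duplicate removal is not stated, so limits from low read numbers cover counting error only.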

Additional observations from a re-analysis of the deposited data

Results flagged for a closer look

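For 40 of the 134 named genes the change with ASO10 differed between NGP and SK-N-BE(2)c in the limma test of the difference, at an adjusted p under 0.05. Over all genes tested in both lines it differed in 2215 of 12754 (17.4%). Many named genes were chosen for large changes in NGP and some were not tested in both lines, so these shares are not alike. Values are NGP minus SK-N-BE(2)c on the log2 scale, with both lines tested against their own controls. Of the genes with the largest increases in NGP, a greater log2 fold change in NGP was found in PHLDA1 (1.51), POLH (1.42) and B3GNT4 (1.22). A smaller one in NGP was found in MYH3 (-2.29), AOC2 (-1.83), ECM1 (-1.46), PYGM (-1.12), IQCN (-0.96), FERMT3 (-0.86), KCNJ14 (-0.84) and CFAP251 (-0.67). Of abundant genes the change differed in MDM2 (1.31), CHD2 (-0.68), H19 (-0.55) and RSRC2 (-0.22). Among the 40 are also 3 genes near 0 in the NGP controls, ADAMTSL4 (2.68), CETP (-2.51) and CYP2D6 (-2.25). These passed the NGP limit only through their ASO10 values, so a rise in NGP was fixed by their choice. Their NGP NCA libraries together held 7, 10 and 32 reads, and the 3 values are descriptions only. On the p53, BCL2 and immediate early lists it was greater in NGP in CDKN1A (1.24), PMAIP1 (0.53) and IER3 (1.05). On the stress lists it was greater in NGP in STC2 (1.21), ATF3 (0.78), HSPA4L (0.99), DNAJB4 (0.72), NFE2L2 (0.53) and SLC7A11 (0.48). It was less in NGP in the heat shock gene DNAJB1 (-0.58). On the cholesterol list it was greater in NGP in HMGCS1 (1.29), MVK (0.78) and MVD (0.58). On the interferon list it was less in NGP in IFI27 (-0.93), STAT2 (-0.73) and MAVS (-0.45). Of the granule and neuronal genes it was greater in NGP in SCG5 (1.92) and STMN2 (0.51). Single members of other lists were PAPOLG (0.41), RPS28 (0.37), MCM6 (-0.25) and SEC61A1 (-0.26). The increase of MYH3 was larger in SK-N-BE(2)c, where its NCA mean was 12.9 against 149 in NGP. In SK-N-BE(2)c the NCA mean was 9.73 for B3GNT4, 9.89 for ADAMTSL4, 0.685 for CYP2D6 and 0 for CETP, so their values there rest on few reads.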

How the results depend on the processing

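Under the alternatives run, no named gene changed direction, and of 2400 values of 134 named genes 36 lost their call, in 7 genes (among them CASP6, CD14, EPCAM, HSPA1B, MPZL1 and NOTCH2). The 1782 genes changed by at least 1 became 832 with a mean of at least 50 and 3316 with no filter on low values, fewer and more genes being tested. With an NCA mean of at least 50 in place of 100, 236 well expressed genes were higher by at least 1, and with 500 these were 45, with 149 lower by at least 1 and 3403 called. Ribosomal protein genes called higher were 31 with no mean-variance trend; the cause was not tested. Placing genes by ASO2 or SK-N-BE(2)c NCA means (5763 and 5606 called) was chosen after seeing the data.

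Recovered reads gave 4133 higher and 3901 lower with edgeR and 3949 and 3528 with DESeq2. Leaving out 1 library at a time gave 6886 to 7840 calls, 3393 to 3977 higher and 3480 to 3863 lower (3635 and 3480 without NCA replicate 1, whose column is spelled differently), 144 to 163 well expressed genes higher by at least 1 and 336 to 399 lower, and 41 to 59 ribosomal protein genes higher. The difference between lines gave 1469 to 3130 calls, with the lowest without ASO10 replicate 2 of SK-N-BE(2)c. Whether replicate numbers pair the libraries is not settled. A replicate block gave 4009 higher and 4053 lower in NGP and 3111 differences between lines. In NGP the deviations of same-numbered ASO10 and NCA libraries had correlations of -0.005, 0.107 and 0.120. ASO10 replicates 2 and 3 correlated best with the NCA library of their own number, and replicate 1 did not. The libraries of SK-N-BE(2)c were not checked in this way. Depth limits genes near 0: 3 reads in a library were treated as the floor. The promoter table held 46.6% of genes near 0, under 80%, so a comparison of their promoters was void.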

Other observations

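Genes outside the lists also moved in opposite directions in the lines. In 211 of the 12754 genes tested in both lines, list members included, the change was called in both with opposite signs. The difference was called too in these 211, a small part of the genes tested, and 139 of them were higher in NGP. RGS16, a regulator of G protein signalling, read 653, 611 and 676 with ASO10 and 244, 237 and 175 with NCA in NGP (log2 fold change 1.57) and 2105, 2045 and 1874 against 2548, 2434 and 2569 in SK-N-BE(2)c (-0.33). GSDMB, a gasdermin, went the other way, with 61.1, 64.7 and 83.8 against 152, 162 and 154 in NGP (-1.16) and 39.1, 28.6 and 27.5 against 19.9, 13.1 and 8.67 in SK-N-BE(2)c (1.19). CLIP1, which binds growing microtubule ends, fell by 0.94 in NGP, while in SK-N-BE(2)c it rose by 0.20. These genes were chosen after their values were seen, for the size of the difference.

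Several abundant genes named in the report lie on the long arm of chromosome 12, around MDM2 and CDK4 and around RSRC2, and stood high in NGP already with NCA. NGP is known for amplification of MDM2 and CDK4; copy number was not measured here. The levels come from 2 separately deposited tables. The NCA means, NGP first and SK-N-BE(2)c after it, were 27327 and 1038 for MDM2, 51837 and 7407 for CDK4, 98912 and 4766 for the chaperonin subunit CCT2, and 33131 and 2111 for RSRC2. These neighbours did not move together with ASO10: MDM2 rose by 0.96, CDK4 fell by 0.46 and CCT2 by 0.38, and NUP107, at -0.06, missed the threshold (adjusted p = 0.24). CYP27B1, which activates vitamin D, had log2 fold changes of 1.25 (NGP) and 2.48 (SK-N-BE(2)c), both called. These genes were chosen by position after their values were seen.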
